A study of Rattus norvegicus with 6 samples.

Results

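Ddit4l (DNA-damage-inducible transcript 4-like, ENSRNOG00000010047, also known as REDD2) is 1 of the 23940 genes in the count table of rat cortical astrocytes grown as tissue-engineered rostral migratory streams (TE-RMSs) or as planar cultures. It lies on chromosome 2 of mRatBN7.2, at chr2:226128276-226131375 on the plus strand. Its row was taken by its identifier. The gene itself was chosen by its small p-value in the contrast of TE-RMS with planar libraries, so its values in that contrast are given as a description, without a test.

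The astrocytes came from the cortex of newborn Sprague-Dawley rats (postnatal day 0 to 1, pups of either sex, no transgene) and were used at passage 4. Planar cultures (label 2Dastro) were plated on collagen in multiwell plates, and TE-RMSs (label TERMS) formed in collagen-coated agarose microchannels. Both were kept in the same culture medium and collected at 4 days in vitro. There were 3 libraries of each kind, 1 pair from each of 3 runs that started from different animals, named here July, September and October after the run labels. Each TE-RMS library pooled well-bundled TE-RMSs that had been kept frozen in RNAlater, whereas planar RNA was extracted fresh, so culture format and preservation cannot be told apart. The libraries held 70682593, 70478784 and 56483332 counts for planar cultures and 54601354, 77277336 and 64537115 for TE-RMSs, in the order July, September and October.

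Ddit4l and its paralog Ddit4 (REDD1) form a small family of stress-responsive proteins that restrain mTOR complex 1 (mTORC1), the kinase complex that couples nutrients and growth factors to protein synthesis and cell growth. They act through the TSC1-TSC2 complex, which keeps the small GTPase Rheb in its inactive form and so withholds the activator of mTORC1. Ddit4 is a well-known target of hypoxia, glucocorticoid and amino acid stress signalling, and Ddit4l is best known from skeletal muscle. Only RNA was measured in these libraries, not the activity of mTORC1.

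The promoters of the paralogs are shown because their RNAs differed in opposite directions between the cultures. Each is the 250 bases before the transcription start, from RefSeq on GRCr8, which is not the build of the counts. That of Ddit4l is at chr2:228801457-228801706 on the plus strand and that of Ddit4 at chr20:28437038-28437287 on the minus strand. Both are printed 5′ to 3′ along the gene. Capitals mark a match to TATAAA, the letters of the box at which many start sites are set. They also mark one to ACGTG, a form of the core of the hypoxia response element.
Ddit4l: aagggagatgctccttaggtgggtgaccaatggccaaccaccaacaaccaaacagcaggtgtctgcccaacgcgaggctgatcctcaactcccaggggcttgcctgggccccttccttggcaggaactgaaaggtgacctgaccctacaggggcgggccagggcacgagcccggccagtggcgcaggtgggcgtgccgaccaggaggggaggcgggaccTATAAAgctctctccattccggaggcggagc
Ddit4: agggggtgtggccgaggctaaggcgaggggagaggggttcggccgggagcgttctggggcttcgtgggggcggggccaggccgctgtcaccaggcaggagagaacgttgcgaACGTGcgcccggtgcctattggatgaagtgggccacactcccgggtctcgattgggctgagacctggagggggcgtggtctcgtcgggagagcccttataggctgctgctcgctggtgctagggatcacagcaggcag

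Both windows were rich in G and C, at 64.4% for Ddit4l and 67.6% for Ddit4, against a median of 51.2% over 33469 rat promoters. TATAAA began at position -31 from the start in Ddit4l and had no match in Ddit4, and 12.9% of promoter windows of this length hold it on either strand. ACGTG began at position -138 in Ddit4 and had no match in Ddit4l, against 16.6% of all windows. GCGTG, another form of the same core, stands in both windows as printed and was not among the letters searched. Ddit4l also held GGAATG, the core of the TEAD site, at -17 (12.1% of windows), GGGCGG, a GC box, at -100 (30.5%), CCAAT at -224 (34.0%) and the E-box letters CANNTG at -195 and -67 (65.5%). Ddit4 held GGGCGG at -183 and CCAAT at -121 and -88, and no CANNTG. Neither window held TGATGNAAT (ATF4 core, 0.944% of windows), GTAAACA (FOXO, 3.21%), TGACGTCA (cAMP response element, 1.59%), TGACNNNGC (antioxidant response core, 10.1%) or GAANNTTC (heat shock core, 7.23%). Both strands were searched, and the matches named here do not overlap each other.

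Ddit4l was detected in every library, and it was an abundant transcript in TE-RMSs. The planar libraries held 2897, 11370 and 8377 counts of it in the July, September and October runs. In TE-RMS libraries of the same runs there were 17755, 79061 and 64110. In CPM, the unit of counts scaled to a common library total (here after TMM normalization), these were 42.8, 157 and 139 CPM in planar cultures and 313, 1099 and 1009.9 CPM in TE-RMSs. Planar cultures averaged 113 ± 61.3 CPM (SD, n = 3). TE-RMSs averaged 807 ± 430.4 CPM (SD, n = 3). All 3 TE-RMS libraries lay above all 3 planar libraries, as did those of 13.2% of the 16331 genes tested. In bulk RNA, a larger share of cells that express a gene cannot be told apart from more of its RNA per cell.

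**Figure D1:**
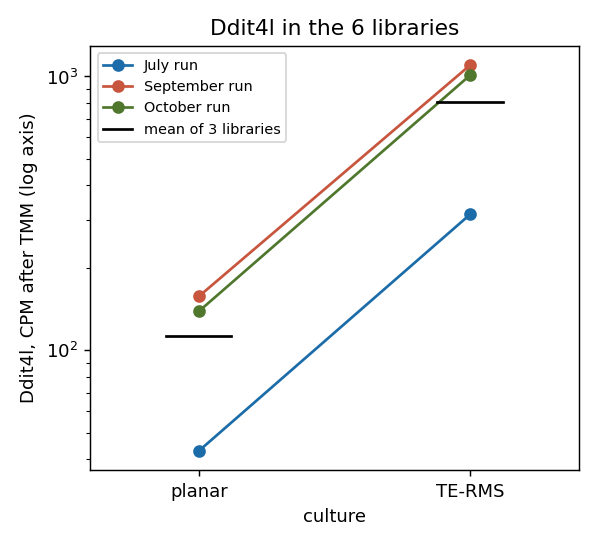
Ddit4l in CPM after TMM normalization (log axis) in planar and TE-RMS cultures, 1 point per library, with lines joining the libraries of one run and black bars at the means of 3 libraries. The 3 lines run nearly parallel, and the July run lies below the others in both cultures, at 42.8 and 313 CPM.

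The TE-RMS library exceeded the planar library of its run by nearly the same ratio in all 3 runs. Ddit4l was 7.31-fold higher in July, 6.996-fold in September and 7.29-fold in October. On the log2 scale (prior count 2) the ratios were 2.87, 2.81 and 2.87, with a mean of 2.85 and an SD of 0.035 between runs. The standard error that counting alone gives each ratio was 0.029, 0.014 and 0.017 on that scale, of the same order as the SD between runs. The fold change of the edgeR model across all genes, with the run as a block, was 2.85 on the log2 scale (standard error 0.17). That model shares its estimate of the spread across genes, and its standard error is therefore wider than the spread of these ratios.

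Ddit4l ranked far higher in the TE-RMS libraries. By count, it was the 3661st gene of the July planar library, the 1161st of September and the 1267th of October, out of 15569, 16047 and 15473 genes with a count. In the TE-RMS libraries it was the 499th, the 102nd and the 96th, out of 14938, 15262 and 13755. It thus stood among the top 0.668% and 0.698% of detected genes in the September and October TE-RMS libraries and among the top 3.34% in July. These ranks are by count and not per length, so a long transcript ranks higher than a short one at equal numbers of molecules. As a share of each library before TMM, Ddit4l took 41.0, 161 and 148 CPM in planar and 325, 1023 and 993 CPM in TE-RMS libraries. The 95% Wilson interval of the library with the fewest counts of it, July planar, ran from 39.5 to 42.5 CPM, and the interval covers counting error only.

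**Figure D2:**
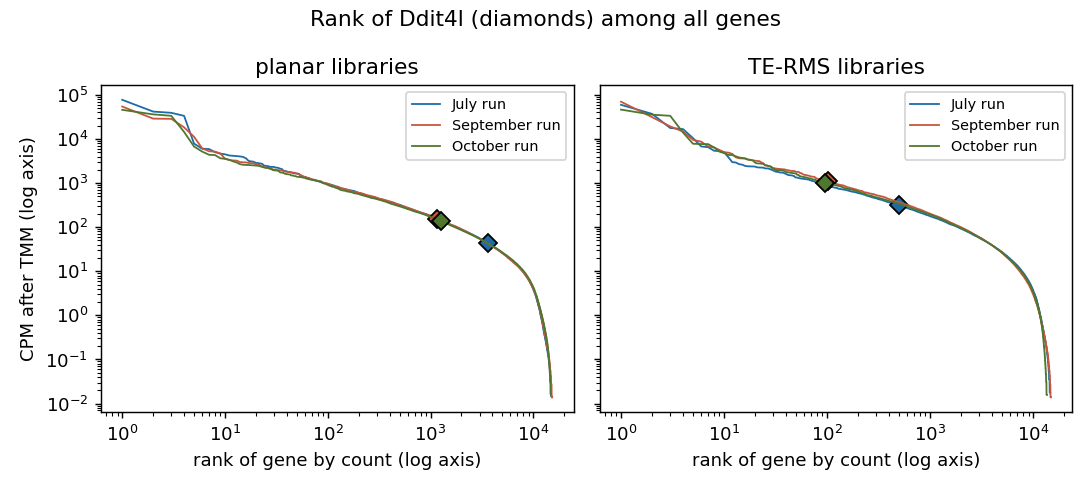
Level of every tested gene with a count in CPM after TMM (log axis) against its rank (log axis), 1 curve per library. Diamonds show Ddit4l at its rank by count among all listed genes in the planar (left) and TE-RMS (right) libraries. The curves of the 6 libraries nearly coincide while Ddit4l sits at ranks 1161 to 3661 in planar and 96 to 499 in TE-RMS libraries.

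Few genes combined such a level with such a difference. Of the 16331 genes tested, edgeR's quasi-likelihood test called 18.6% at an adjusted p under 0.05, with 9.36% higher and 9.28% lower in TE-RMSs. Ddit4l had the second smallest p among the 1528 genes called higher, and this is the value that chose it. Among those 1528 genes, 45 had a larger log2 fold change. By mean CPM of the TE-RMS libraries, 137 genes stood above Ddit4l, and 1 of them, Gsta1, was called higher with a larger fold change. Gsta1 encodes a glutathione S-transferase of a family with very similar members, between which reads may have been divided.

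Among 677 genes whose mean CPM lay within 2-fold of that of Ddit4l, 12 had a smaller SD of the 3 within-run ratios. The median SD of these genes was 0.25 on the log2 scale. For Ddit4l, the difference between cultures made up 74.4% of the sum of squares of log2 CPM, the difference between runs 25.6% and the remainder 0.00765%. The medians over the 677 genes were 40.5%, 32.6% and 11.0%. A small remainder is part of what gave Ddit4l its small p, so these values describe the choice and do not add to it.

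**Figure D3:**
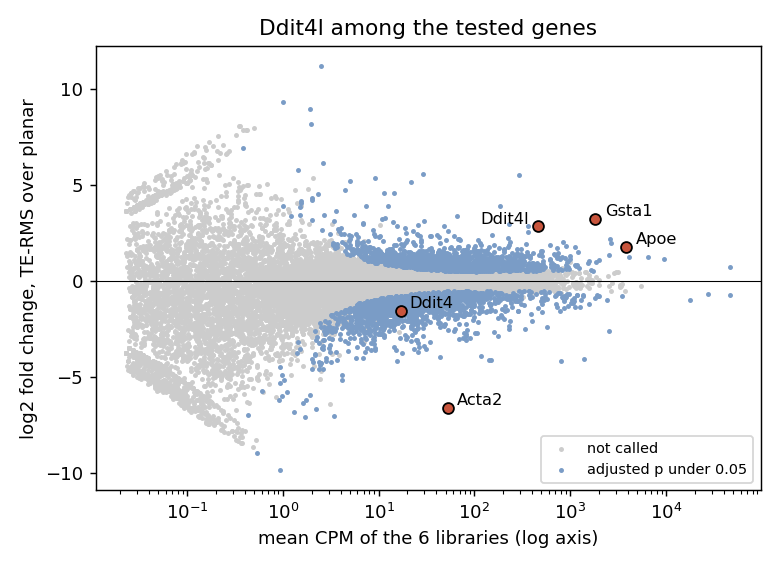
Log2 fold change of TE-RMS over planar against the mean CPM of the 6 libraries (log axis) for the 16331 tested genes, with genes at an adjusted p under 0.05 in blue. Ddit4l, at 2.85, stands above most genes of its level, and its paralog Ddit4 lies below 0 at -1.55.

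The runs also differed in Ddit4l, and this difference had no part in choosing the gene. In planar cultures the September and October libraries exceeded the July library 3.67-fold and 3.24-fold, and in TE-RMSs 3.51-fold and 3.23-fold. July was thus the lowest run in both cultures, and by much the same factor. The September library exceeded the October library by only 1.13-fold in planar and 1.09-fold in TE-RMS cultures. A joint test of the run terms in edgeR's quasi-likelihood model, with the culture in the model, gave an adjusted p of 0.000752 for Ddit4l, the 41st smallest of all genes. By this test 3.21% of the 16331 genes differed between runs. With the July run left out, the adjusted p was 0.750. The small spread within the model, which helped to choose the gene, enters this test as well.

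Ordered by level, the libraries ran from planar July through planar October, planar September, TE-RMS July and TE-RMS October to TE-RMS September. The October and September libraries of each culture are neighbours in this order, and it was their difference that did not pass with July left out. The step from the highest planar to the lowest TE-RMS library, September planar to July TE-RMS, was 1.99-fold, far smaller than the ratio within any run.

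Ddit4, the paralog with the closest function, differed in the opposite direction. It is at chr20:27891998-27894105 of mRatBN7.2. Its planar libraries held 23.2, 16.2 and 37.3 CPM and its TE-RMS libraries 9.15, 6.55 and 9.26 CPM, by run as above. All TE-RMS libraries lay below all planar libraries, as did those of 16.1% of the genes tested. Ddit4 fell by 1.55 on the log2 scale (standard error 0.26, edgeR adjusted p = 0.00146). It could be named only because it was among the genes of the smallest p-values in the study's own contrast. That Ddit4 passed here was thus nearly settled beforehand. Its run terms had an edgeR adjusted p of 0.321, and its lowest libraries in each culture were those of September, where Ddit4l was highest.

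For the rest of the pathway, only genes that a supplementary table of the study pairs with an identifier could be named. The part of that table at hand holds 1517 genes of the smallest p-values, 1503 of them with a symbol. Nearly all of these (99.7%) were called here, 747 higher and 752 lower, so a joined gene had to be among the changed ones. Of 81 genes on lists of the mTOR pathway besides Ddit4l, 10 could be joined. Of these 10, 3 rose and 7 fell, with a median log2 fold change of -1.21, against -0.12 over all tested genes and -0.76 over the named genes. The members that could not be joined were not analysed here, and the counts cannot stand for the lists.

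Among the subunits of mTORC1, the inhibitory subunit Akt1s1 (PRAS40) was the only one joined. It had 112, 83.3 and 110.5 CPM in planar and 62.4, 50.4 and 59.1 CPM in TE-RMS libraries, and fell by 0.82 on the log2 scale (edgeR adjusted p = 0.00345). No member of the list of the TSC complex and Rheb, through which Ddit4l acts, could be joined, and none of mTORC2.

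Of the genes that carry amino acid signals to mTORC1, 2 of 26 were joined, and they went in opposite directions. Rragb, which encodes a Rag GTPase that recruits mTORC1 to lysosomes, rose by 1.37 (edgeR adjusted p = 0.000360). Its libraries held 21.6, 25.2 and 24.6 CPM in planar and 66.0, 56.8 and 61.9 CPM in TE-RMS cultures. Castor2, of the family of arginine sensors that inhibit the pathway, fell by 2.08 (edgeR adjusted p = 0.0169). Its ratio was uneven between runs, at -0.36 in July, -3.85 in September and -2.06 in October, and without the October run its adjusted p was 0.108 and without the block 0.107.

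Both joined genes of the insulin and IGF input fell. They were Igf1r, the receptor of insulin-like growth factor 1, at -1.24 on the log2 scale, and Pik3r2, a regulatory subunit of phosphoinositide 3-kinase, at -1.69. Igf1r had an edgeR adjusted p of 0.00633, and of 0.0714 without the October run. Pik3r2 had an edgeR adjusted p of 0.00229. Of the 7 genes of the AMPK list, Prkaa1, a catalytic subunit of the kinase that senses low energy, was joined. It rose by 1.08 (edgeR adjusted p = 0.00310), from 23.8, 21.6 and 17.0 CPM in planar to 42.8, 60.6 and 31.5 CPM in TE-RMS libraries.

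Of 19 substrates and outputs of mTORC1, 3 were joined. Pdcd4, an inhibitor of translation whose protein is removed after S6 kinase acts on it, rose by 1.27. Larp1, which binds the mRNAs of the translation machinery, fell by 1.70, and Srebf1, a transcription factor of lipid synthesis, fell by 1.18. Their edgeR adjusted p-values were 0.00106, 0.000879 and 0.00124. Srebf1 differed between runs as well (edgeR adjusted p = 0.000514), with 75.5, 131 and 419 CPM in planar and 47.3, 45.3 and 168 CPM in TE-RMS libraries, and its cultures overlapped. Without the run in the model, neither Srebf1 nor Pdcd4 passed, at edgeR adjusted p-values of 0.264 and 0.0579.

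**Figure D4:**
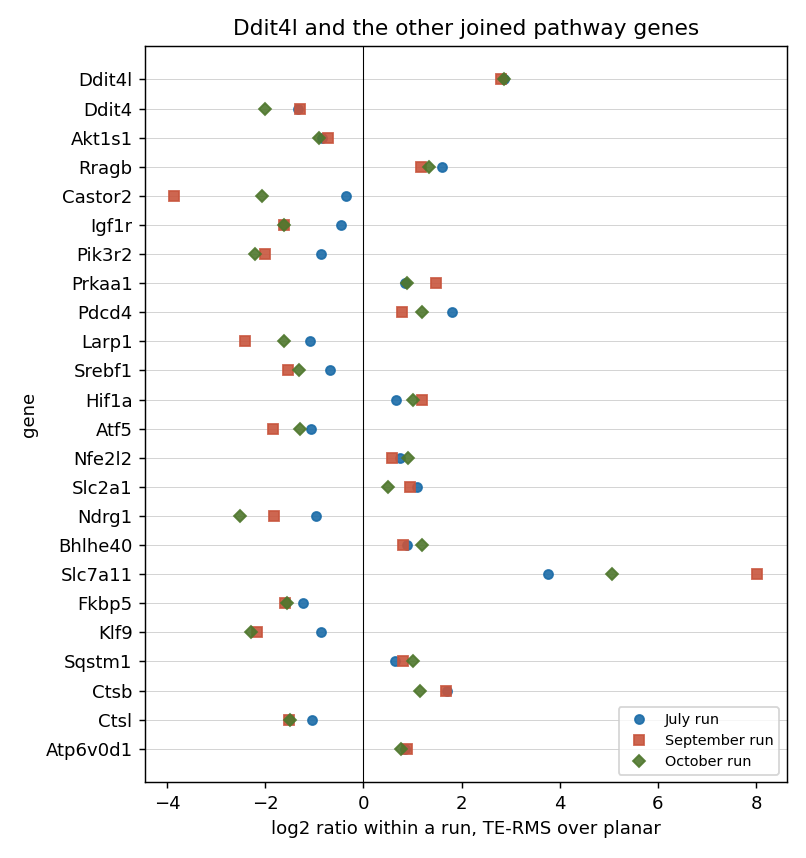
Log2 ratio of the TE-RMS to the planar library within each run for Ddit4l and the other genes of the pathway and stress lists that could be joined, 1 symbol per run. The 3 ratios of Ddit4l lie on top of each other between 2.81 and 2.87, while those of Castor2 and Slc7a11 are spread widely.

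Lists of stress regulators and of genes that respond to them held 13 joined genes of 57, of which 8 rose and 5 fell. Of 10 transcription factors linked to stress, 3 were joined. Hif1a, the oxygen-regulated subunit of hypoxia-inducible factor 1, rose by 0.95 (edgeR adjusted p = 0.00208), with 106, 95.3 and 110.2 CPM in planar and 168, 217 and 223 CPM in TE-RMS libraries. Nfe2l2, the regulator of the antioxidant response, rose by 0.74 (edgeR adjusted p = 0.00792), and its adjusted p was 0.0553 without the October run and 0.191 without the block. Atf5, an activating transcription factor of the stress response, fell by 1.399 (edgeR adjusted p = 0.00334, and 0.101 without the block). Of 14 hypoxia-responsive genes, 3 were joined. The glucose transporter Slc2a1 rose by 0.85 and the transcriptional repressor Bhlhe40 rose by 0.96, while Ndrg1, an N-myc downstream-regulated gene, fell by 1.77. The edgeR adjusted p-values were 0.00477, 0.00167 and 0.000659, and for Slc2a1 and Bhlhe40, whose cultures overlapped, they were 0.177 and 0.219 without the block.

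The glucocorticoid-responsive genes Fkbp5, which encodes a cochaperone of the glucocorticoid receptor, and Klf9, a Krüppel-like transcription factor, were 2 of 6 on their list to be joined. They fell by 1.46 and 1.79 on the log2 scale (edgeR adjusted p = 0.000529 and 0.000534). Of 11 genes that respond to ATF4, the cystine transporter Slc7a11 was joined. It held 43, 29 and 87 counts in planar and 507, 8083 and 3124 counts in TE-RMS libraries, and rose by 5.59 (edgeR adjusted p = 0.000122). Its ratios ran from 3.75 in July to 8.03 in September, a range that contrasts with the even ratios of Ddit4l. Of 16 lysosome and autophagy genes, 4 were joined. Sqstm1 (the autophagy receptor p62), the protease Ctsb and the proton pump subunit Atp6v0d1 rose, by 0.82, 1.52 and 0.84, and the protease Ctsl fell by 1.35. Their edgeR adjusted p-values were 0.00419, 0.000187, 0.00283 and 0.000310 in that order.

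The genes with a pattern most like that of Ddit4l over the 6 libraries were sought among 11892 genes with at least 10 counts in every library. Likeness was measured as the root mean square difference of log2 CPM after subtracting each gene's mean. The nearest was Mamdc2, a gene of a MAM domain protein of the extracellular space, at 0.43, followed by Bmper (a secreted regulator of BMP signalling, 0.43), Samd5 (0.45) and Gsta1 (0.46). The next were Enpep (aminopeptidase A, 0.51), Bambi (a decoy receptor of the TGF-beta family, 0.51), Ptgs2 (cyclooxygenase-2, 0.51), Serpine2 (a protease inhibitor, 0.56), Snap91 (a clathrin assembly protein, 0.58) and Cat (catalase, 0.59). Samd5, Bmper and Enpep were scarce in planar libraries, at 0.266 to 0.539, 0.754 to 2.99 and 0.310 to 1.31 CPM in that order. Their patterns there rest on low counts. The median difference over all genes compared was 1.70, and 4 genes were under 0.5. Genes were sought for their likeness, so these values carry no test.

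Mamdc2 held 11.1, 29.4 and 28.5 CPM in planar and 34.7, 131 and 184 CPM in TE-RMS libraries. Like Ddit4l, it was lowest in July in both cultures. Gsta1 held 76.7, 701 and 496 CPM in planar and 1287, 5006 and 3438 CPM in TE-RMS libraries, and its within-run log2 ratio was 4.07 in July against 2.84 and 2.79. None of the 4 nearest genes had ratios as even as those of Ddit4l. By Pearson correlation of the same values, which ignores the size of the differences, 1 of these 10 genes (Gsta1) was again among the top 10. The highest was Pam, a peptide-amidating enzyme, with a correlation of 0.996 over 6 libraries and a log2 fold change of 0.93. Of the genes compared, 1.07% had a correlation over 0.95.

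**Figure D5:**
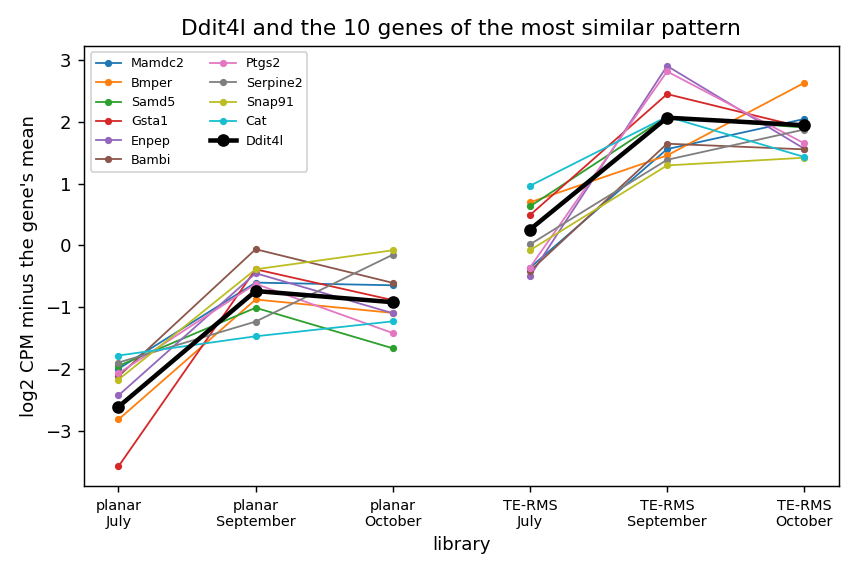
Log2 CPM minus the gene's mean in the 6 libraries for Ddit4l (black) and the 10 genes with the smallest root mean square difference from it, with lines only within a culture. All 11 genes are lowest in the July planar library and higher in each TE-RMS library than in the planar library of its run.

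Markers of cell types were read beside these values. Of 14 astrocyte markers, 6 could be joined, and Gfap, Aqp4 and Aldh1l1 were not among them. The glutamate transporters Slc1a3 and Slc1a2, the gap junction gene Gja1, the lipid carrier Apoe and the sodium pump subunit Atp1b2 rose, and the receptor Fgfr3 fell. Their summed level was 2456, 1789 and 3027 CPM in planar and 8535, 5231 and 9625 CPM in TE-RMS libraries, and Apoe was the most abundant.

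Of 8 microglia markers, Cd68 was joined, with 1.30, 15.6 and 0.778 CPM in planar and 8.69, 85.4 and 3.75 CPM in TE-RMS libraries. Of 7 neuron markers, Map2 and Snap25 were joined, and Snap25 reached 60.8 CPM in the September TE-RMS library against at most 3.92 in any other. Map2 held 12.7, 3.70 and 5.89 CPM in planar and 34.5, 30.5 and 14.6 CPM in TE-RMS libraries. All 3 of these genes were higher in the TE-RMS library of each run, and Cd68 and Snap25 were highest in September in both cultures. Of 6 fibroblast and mural markers, Col1a1, Col1a2 and Acta2 were joined and all fell. Their sum was 637, 381 and 654 CPM in planar and 130.03, 125 and 216 CPM in TE-RMS libraries, and Acta2 was down to 3 counts in the October TE-RMS library. Among oligodendrocyte lineage markers, the proteoglycan gene Cspg4 fell by 3.41. No endothelial marker could be joined. The part of such cells in the level of Ddit4l was not tested.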

How the data were processed

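RNA was sequenced by the authors from 3 TE-RMS and 3 planar libraries with a kit that keeps no strand, so reads of a gene and of a transcript antisense to it cannot be told apart. The labels and the study's methods name fastp for trimming and Salmon for quantification against the Ensembl v111 transcriptome of mRatBN7.2, followed by summary per gene with tximeta. What the authors deposited is 1 table of estimated counts, rounded to whole numbers and with no normalization. Salmon divides reads between similar transcripts by probability.

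Genes whose 6 counts summed to at least 10 (16331) entered a quasi-likelihood fit in edgeR 4.0.16 (R 4.3.3) after TMM scaling. The run was a block, and p-values were adjusted by Benjamini-Hochberg and called under 0.05. P-values for run terms come from the same model. The run labels pair the libraries: deviations from the mean of the culture correlated at 0.18 to 0.27 across genes within a run and at -0.16 to -0.066 between runs. The prior count was 0.125 for fold changes of the model and 2 for log2 CPM and ratios within runs. DESeq2 1.42.0, the method of the study, limma 3.58.1 (voom), other scalings and filters, no block, thinned counts and each run left out were alternatives. Tested on simulated counts of 15896 genes with 200 changed, the blocked fit recovered 63% of them, and 13.1% of its 145 calls were unchanged genes, more than the threshold of 0.05 is meant to allow. The fit without the block recovered 38.5%, and 0% of its 77 calls were unchanged genes.

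The gene, the lists and the tests were chosen with earlier results of these data known. Named genes were Ddit4l, the list members that could be joined by symbol, the 10 genes of the most similar pattern (by either measure) and the 5 ranks on each side of Ddit4l by mean CPM. Values by library are given in the order July, September and October. Names and mRatBN7.2 coordinates come from the supplementary table of the study. The RefSeq gene table at hand is of GRCr8, pairs no Ensembl identifiers and was not used for names. Promoters of both genes were matched in the RefSeq table by symbol. Transcript lengths were not used here, so levels are not per length. 1 marker gene is not reported here.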

Additional observations from a re-analysis of the deposited data

How the results depend on the processing

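The log2 fold change of Ddit4l stayed between 2.80 (upper-quartile scaling) and 2.88 (no filter but at least 1 count) under the 11 alternatives, and 1 of them, upper-quartile scaling, moved it by more than the SD between runs. Without the run as a replicate block it was 2.84, and the number of genes called between the cultures fell from 3044 to 1441. DESeq2 with the block called 3945. The difference of Ddit4l between runs had adjusted p-values from 4.72e-07 to 0.750 with a run left out, and of the 10 alternatives run for it (the fit without the block has no run terms) it passed under all except the one without the July run. The number of genes differing between runs was 525, against 1257 with DESeq2 and 224 with at least 10 counts in at least 3 libraries; the cause was not tested. All 23 joined genes of the pathway and stress lists kept their direction under the alternatives run. Without the block 16 of them passed, without the October run 20, and under each of the other alternatives all 23. The joined genes came from those of the smallest p-values in the study, so their passing was largely settled beforehand. The median rank of Ddit4l was 102 in TE-RMS libraries, both as deposited and thinned to the smallest total, and 1267 and 1266 in planar libraries. By Pearson correlation, 1 of the 10 genes most like Ddit4l was shared, and with a prior count of 0.5 all 10 were. A rank by count per length was not run. The number of library pairs, 3, limits the precision, and Ddit4l had at least 2897 counts in each library.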

Other observations

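By mean CPM Ddit4l was the 138th gene in TE-RMS libraries and the 1589th in planar libraries. The 5 genes on each side of it in TE-RMS libraries had log2 fold changes from -0.21 to 0.59, and none of them has a name here. In planar libraries the 10 neighbours ran from -1.48 to 0.41, and the lowest was Raly, which encodes an RNA-binding protein.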
